A study of Homo sapiens with 27 samples.

Results

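HuH-7 is a human liver cancer cell line, and the comparison described here is between HuH-7 cells carrying a CRISPR guide against KLB (sgKLB, genotype given as a KLB knockout) and HuH-7 cells carrying a non-targeting guide (sgNTC, genotype given as WT). The labels number 3 biological replicates per group, so the comparison rests on 6 of the series' 27 libraries. The members are all genes that reached 1 FPKM in 3 or more of the 12 HuH-7 libraries, 14716 of 58735. FPKM is the number of fragments per kilobase of transcript, scaled to the depth of the library. The other HuH-7 groups, used beside it, carried guides against FGFR4 (sgFGFR4) or against FGFR3 and FGFR4 (sgFGFR3/4). JHH-7, another human liver cancer line, supplied its own sgNTC and sgKLB groups. All groups were grown in DMEM with fetal bovine serum and all carry a guide, and total RNA was sequenced. The fits that hold JHH-7 also took in its sgFGFR4 and sgFGFR3/4 groups and a group with guides against FGFR1, FGFR3 and FGFR4 (sgFGFR1/3/4). These entered the filter and the spread, not the means compared. The labels do not say whether a group is a clone or a pool of edited cells, give no batch or date, and report no measurement of editing or of protein. Nothing in them says that replicates were separate cultures, so the p-values measure the spread between these libraries, which may be technical.

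KLB encodes beta-klotho, a single-pass membrane protein without kinase activity. Together with FGFR4 it forms the receptor for FGF19, a hormone released by the ileum after a meal, which in hepatocytes represses bile acid synthesis. The activated receptor signals through the adaptor FRS2 and the RAS-ERK cascade. ERK induces ETS factors such as ETV4 and ETV5 and its own inhibitors of the Sprouty and DUSP families, and it drives entry into the cell cycle. Some liver cancers make FGF19 themselves. The design asks which transcripts depend on the co-receptor, and how its loss compares with loss of the receptors.

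Estimated depth of the 6 libraries was 13.2 to 22.3 M fragments, and 13353 to 13883 genes reached an FPKM of 1. Spearman correlations between pairs of the 6 libraries were 0.962 to 0.981. The deposited FPKM summed to 782509 to 822978 in the sgNTC libraries and to 752937 to 771461 in the sgKLB libraries, which do not overlap. Hepatocyte markers were present, with ALB at 2820.3, 2899 and 2561 FPKM in sgNTC. Of the endothelial markers only PECAM1 passed the filter on low values, at 1.53 and 1.17 FPKM (sgNTC and sgKLB means), and PTPRC, CD3E, NKG7 and MS4A1 of the immune markers did not pass it. The summed FPKM of the 8 immune markers was 182 to 188 in sgNTC and 164 to 176 in sgKLB, that of the 8 endothelial markers 1.54 to 2.26 and 1.14 to 1.68, and that of the 8 stromal markers 208 to 251 and 187 to 202. The part of these markers in the results was not tested.

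Across the 14716 genes, 2591 (17.6%) differed between sgKLB and sgNTC at an adjusted p under 0.05 in limma. Of these, 1322 (8.98%) rose and 1269 (8.62%) fell. A change of at least 1 on the scale of log2(FPKM + 1) was seen in 224 of them (1.52%), 159 rises (1.08%) and 65 falls (0.442%). Values of the groups did not overlap for 4954 genes (33.7%), and the median change of all genes was 0.02. Rescaling every library to the same sum (TPM) gave 1730 rises and 974 falls with a median of 0.08, so the balance of directions, unlike the total, moved with the scale. Changes are given on that scale with their standard error (SE). Log2 changes understate the fold of genes with low FPKM. Among genes with a mean FPKM under 5, 272 of 5015 rose and 99 fell, and among those at 100 or more, 147 of 1184 rose and 300 fell.

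Some lists had calls mainly in one direction. List counts, here and below, are to be read beside the shares of all tested genes, 8.98% rising and 8.62% falling. More members fell than rose in the lists of DNA replication (41 against 0), mitosis (36 against 0), ribosome biogenesis (19 against 0) and glycolysis (14 against 4). More rose than fell in those of plasma carriers (13 against 0), coagulation (15 against 2) and conjugation enzymes (25 against 1). The promoters of a few of these genes are shown first, because short sequence elements were frequent there in several of the lists that moved. The sequences are from RefSeq (GRCh38.p14) and give the 250 bases before the annotated start, 5′ to 3′ on the gene's own strand. Of the genes tested, 10727 had a promoter in that table.

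The first pair are replication genes whose promoters hold TTTCCCGC, the form of site bound by E2F factors, on either strand. PCNA (chr20:5126623-5126872, minus strand) encodes the sliding clamp of DNA polymerase, and MCM7 (chr7:100101398-100101647, minus strand) a subunit of the replicative helicase. Capitals mark the element.
PCNA: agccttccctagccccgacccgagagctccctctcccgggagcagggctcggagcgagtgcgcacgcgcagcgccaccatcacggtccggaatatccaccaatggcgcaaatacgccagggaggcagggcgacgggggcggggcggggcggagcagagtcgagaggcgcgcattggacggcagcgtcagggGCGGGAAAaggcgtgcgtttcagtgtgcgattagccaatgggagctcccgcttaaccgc
MCM7: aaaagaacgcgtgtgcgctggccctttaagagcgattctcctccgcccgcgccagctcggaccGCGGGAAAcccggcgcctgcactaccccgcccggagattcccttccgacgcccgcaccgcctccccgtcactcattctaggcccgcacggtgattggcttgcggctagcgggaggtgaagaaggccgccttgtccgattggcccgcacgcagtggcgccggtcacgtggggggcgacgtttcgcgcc

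The second pair are mitotic genes with TTTGAA, the cell cycle genes homology region (CHR), on either strand. CDC20 (chr1:43358731-43358980, plus strand) encodes the activator of the anaphase-promoting complex, and PLK1 (chr16:23678639-23678888, plus strand) a kinase of mitotic entry. CDC20 has 2 matches and PLK1 1. PLK1 was chosen after its values were seen.
CDC20: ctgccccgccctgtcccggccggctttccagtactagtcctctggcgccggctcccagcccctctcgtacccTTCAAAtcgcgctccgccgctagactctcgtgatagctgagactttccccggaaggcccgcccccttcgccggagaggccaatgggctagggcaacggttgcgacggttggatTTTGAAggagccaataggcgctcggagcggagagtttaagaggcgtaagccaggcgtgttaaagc
PLK1: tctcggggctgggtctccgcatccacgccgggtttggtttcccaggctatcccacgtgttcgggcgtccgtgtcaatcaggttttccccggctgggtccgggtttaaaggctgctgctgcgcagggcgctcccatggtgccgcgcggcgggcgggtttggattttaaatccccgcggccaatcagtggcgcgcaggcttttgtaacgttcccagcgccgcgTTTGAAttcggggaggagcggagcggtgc

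The elements were counted over windows of 250 bases before to 50 bases after each start, on both strands, each counted without regard to the others. TTTCCCGC was in 9 of 34 replication genes that fell and had a promoter (26.5%), in 0 of 29 mitotic genes, in 2.54% of tested genes and in 1.66% of the 27305 promoters of the table. TTTGAA showed the opposite pattern, with 18 of 29 mitotic genes (62.1%), 1 of 34 replication genes (2.94%), 9.61% of tested genes and 15.4% of all promoters. CCAAT, bound by NF-Y, was in 23 of 29 mitotic genes (79.3%) and in 19 of 34 replication genes (55.9%), against 36.7% of tested genes and 35.7% of all promoters. Among 38 genes of the plasma protein lists that rose, CCAAT was in 21 (55.3%) and TTTGAA in 9 (23.7%), so both were also above the share of all promoters in genes that moved the other way. CACGTG, an E-box bound by MYC, MAX and other factors, was in 8 of 13 ribosome biogenesis genes (61.5%), in 10.1% of tested genes and in 7.43% of all promoters. Over all genes that fell and had a promoter, the shares were 4.76% for TTTCCCGC, 14% for TTTGAA, 44.3% for CCAAT and 13.6% for CACGTG. The ETS site CCGGAAGT was in 10.4% of them, in 3 of 34 replication genes (8.82%) and in 8.88% of tested genes. Another form of E2F site and sites of HNF1, HNF4 and AP-1 were also counted and are not given here. List members that were not called were not counted apart. These shares describe letters in the windows and were not tested.

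KLB (ENSG00000134962; GRCh38 chromosome 4, 39406853 to 39451536), the gene the guide targets, was at 18.6, 17.4 and 15.2 FPKM in the 3 sgNTC libraries and at 6.09, 7.25 and 6.23 FPKM in the 3 sgKLB libraries. Every sgKLB library lay below every sgNTC library. The difference (log2 change -1.26 ± 0.0977, adjusted p 7.32e-06) was larger than the spread within either group, and the transcript stayed detectable in each sgKLB library. A guide alters a transcript's level only indirectly, so these values check the label and not the loss of the protein.

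FGF19 (ENSG00000162344), the ligand of the receptor complex, moved the other way: it was at 8.36, 7.82 and 8.81 FPKM in sgNTC and at 20.1, 18 and 19.3 in sgKLB (log2 change 1.11 ± 0.107, adjusted p 3.62e-05). The groups are separate, with the lowest sgKLB library more than 9 FPKM above the highest control. The receptor transcripts differed less. FGFR4, the main hepatocyte receptor, was at 230.3, 232 and 255 in sgNTC and 224, 187 and 211 in sgKLB (log2 change -0.20 ± 0.0713, adjusted p 0.0695), groups that do not overlap but did not pass. FGFR3 was at 114, 119 and 119 FPKM in sgNTC and 107, 96.8 and 106 in sgKLB (log2 change -0.19 ± 0.0571, adjusted p 0.0429). The FGFR3 groups do not overlap, but the call was lost when any library other than sgKLB 1 was left out. FGFR1 was at 6.15, 4.54 and 6.92 FPKM in sgNTC and 6.73, 4.52 and 6.24 in sgKLB, with overlapping groups. FGFR2, the klotho gene KL, FGF21, and the bile acid synthesis enzymes CYP7A1 and CYP8B1, which FGF19 is known to repress in hepatocytes, were below the filter, CYP7A1 being listed at 0 in all 3 sgNTC libraries.

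**Figure D1:**
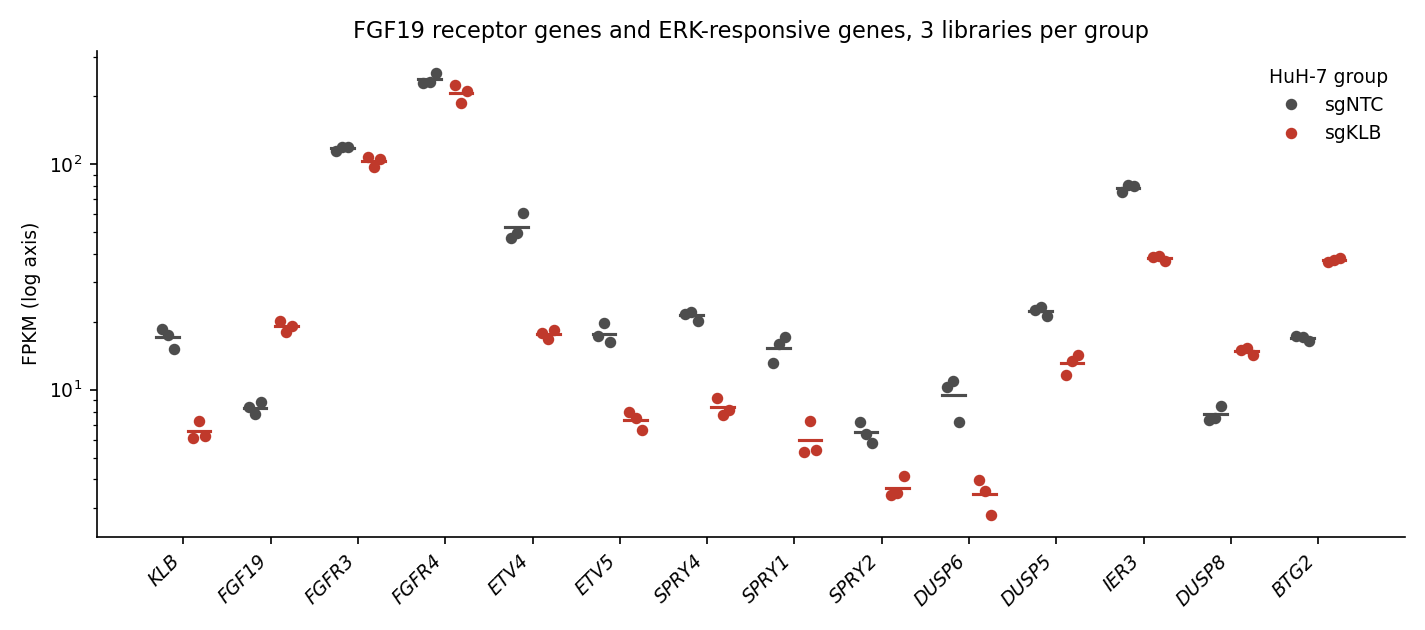
FPKM (log axis) of FGF19 receptor genes and ERK-responsive genes in each library, with 3 sgNTC (grey) and 3 sgKLB (red) libraries per gene and a bar at each group mean. KLB, ETV4, ETV5, the Sprouty genes, DUSP6, DUSP5 and IER3 lie lower in all sgKLB libraries, FGF19, DUSP8 and BTG2 lie higher, and FGFR4 did not pass the test.

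Of 17 tested genes starting within 1 Mb of the KLB start, KLB included, 2 others fell and 1 rose. Such counts are near the shares of all tested genes, of which 8.62% fell and 8.98% rose. TMEM156, whose start lies at -373.9 kb from that of KLB, was at 13.6, 12.6 and 13 FPKM in sgNTC and 5.13, 6.86 and 6.49 in sgKLB (log2 change -0.98 ± 0.113, adjusted p 0.000124), with no overlap. KLHL5 (log2 change -0.41 ± 0.117, adjusted p 0.0325) and SMIM14 (log2 change 0.65 ± 0.175, adjusted p 0.0235) passed in the full fit and lost the call when single libraries were left out: KLHL5 without any library other than sgNTC 3, SMIM14 without sgKLB 2, sgKLB 3 or sgNTC 1. Of the others, RFC1 at -0.26, LIAS at -0.05 and RPL9 at -0.24, did not pass.

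Genes whose transcripts follow ERK output changed in both directions. Among 15 tested ERK feedback inhibitors, 7 fell and 3 rose (median -0.21, against 0.02 for all genes). SPRY4, a Sprouty inhibitor of RAS activation, was at 21.8, 22.1 and 20.2 FPKM in sgNTC and 9.22, 7.74 and 8.15 in sgKLB (log2 change -1.26 ± 0.0898, adjusted p 4.29e-06). SPRY1 was at 13.1, 15.9 and 17.1 FPKM in sgNTC and 5.3, 7.26 and 5.38 in sgKLB (log2 change -1.23 ± 0.137, adjusted p 0.000102), and DUSP6, the phosphatase that inactivates ERK in the cytoplasm, at 10.2, 10.9 and 7.18 FPKM in sgNTC and 3.98, 3.54 and 2.79 in sgKLB (log2 change -1.22 ± 0.199, adjusted p 0.00134). In these genes all sgKLB libraries lay below all controls, by the least margin in DUSP6, whose sgNTC 3 was the lowest control. SPRY2 (-0.68), DUSP5 (-0.73) and SPRED2 (-0.51) also fell. Not every phosphatase followed: DUSP8, which acts on JNK and p38, rose from 7.76 ± 0.617 to 14.9 ± 0.539 FPKM (log2 change 0.86 ± 0.0967, adjusted p 0.000108), DUSP1 rose by 0.38, and DUSP4 was at 34.3 and 32.6 FPKM (sgNTC and sgKLB means) without passing.

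Of 16 ETS factors, 3 fell and 3 rose. The FGF-responsive factors ETV4 and ETV5 fell most: ETV4 was at 47.2, 49.6 and 60.5 FPKM in sgNTC and 17.9, 16.8 and 18.3 in sgKLB (log2 change -1.51 ± 0.101, adjusted p 2.73e-06), ETV5 at 17.3, 19.8 and 16.2 FPKM in sgNTC and 7.97, 7.5 and 6.63 in sgKLB (log2 change -1.16 ± 0.166, adjusted p 0.000555). Neither gene's groups overlap. ETV1, of the same subfamily, had means of 9.84 and 5.58 FPKM in sgNTC and sgKLB without passing (adjusted p 0.0622). ETS2 (0.56) and the epithelial factor ELF3 (0.70) rose.

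Among 22 AP-1 and immediate early genes, 4 fell and 6 rose (median -0.25). IER3, an ERK-induced survival gene, was at 75.2, 81.1 and 80.2 FPKM in sgNTC and 38.9, 39.1 and 37.4 in sgKLB (log2 change -1.02 ± 0.0724, adjusted p 4.29e-06), and JUNB fell (-0.52). JUN (0.57), JUND (0.68), ATF3 (0.62) and KLF6 (0.53) rose. BTG2, an antiproliferative gene, rose from 17.2, 17.1 and 16.5 to 37, 37.7 and 38.5 FPKM (log2 change 1.11 ± 0.0742, adjusted p 2.73e-06), with a spread of under 2 FPKM within each group. EGR1 was at 1.58, 2.19 and 2 in sgNTC and 1.15, 1.55 and 0.95 in sgKLB and did not pass. Of 27 adaptors and kinases between the receptor and ERK, 2 fell and 0 rose, where 8.62% of all tested genes fell and 8.98% rose. SHC1, an adaptor of receptor tyrosine kinases, fell, with 170.3, 172 and 186 FPKM in sgNTC and 127, 124 and 106 in sgKLB (log2 change -0.56 ± 0.0697, adjusted p 0.000195). HRAS was the other (-0.31, adjusted p 0.0193), and its call was lost in fits without sgKLB 3 or sgNTC 3 (adjusted p up to 0.0825).

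The largest falls and rises were also read by size, among genes that passed and whose groups do not overlap. Separation of the groups in these genes is thus part of the choice and not a result. This holds too where genes of this set are named in other paragraphs. Besides ETV4, KLB and the Sprouty genes, the falls in genes of a mean log2(FPKM + 1) of at least 3 included the galectin LGALS14, the nicotinamide methyltransferase NNMT, the synaptotagmin SYT12, the importin IPO4 and the neuropeptide galanin (GAL). LGALS14 was at 24.5, 23.4 and 16 FPKM in sgNTC and 5.24, 5.7 and 7.14 in sgKLB (log2 change -1.65 ± 0.295, adjusted p 0.00232), and SYT12 at 20.9, 23.9 and 25.3 FPKM in sgNTC and 8.54, 9.32 and 7.17 in sgKLB (log2 change -1.38 ± 0.132, adjusted p 3.31e-05). NNMT was more variable, at 8.2, 15.4 and 14.9 FPKM in sgNTC and 4.84, 2.72 and 4.37 in sgKLB (log2 change -1.46 ± 0.288, adjusted p 0.00442). VRK1, a chromatin kinase, fell (log2 change -1.22 ± 0.293, adjusted p 0.0131), and its mean rests partly on sgNTC 3, with 9.56, 11.8 and 28.7 FPKM in sgNTC and 5.14, 6.43 and 5.93 in sgKLB. Without sgNTC 3 its change was -0.77.

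Among the rises of that size, SERPINF2, the inhibitor of plasmin, was at 34.5, 33.9 and 39.5 FPKM in sgNTC and 145, 132 and 142 in sgKLB (log2 change 1.93 ± 0.0794, adjusted p 1.33e-07), a 3.89-fold rise of the mean. PON1, a paraoxonase carried on HDL, was at 6.89, 5.97 and 4.3 FPKM in sgNTC and 18.6, 24.1 and 25.6 in sgKLB (log2 change 1.83 ± 0.205, adjusted p 0.000105), and CLTRN, a partner of amino acid transporters, at 3.48, 3.91 and 2.89 FPKM in sgNTC and 13.2, 15.1 and 14.3 in sgKLB (log2 change 1.78 ± 0.116, adjusted p 2.51e-06). The margin between the groups was wide in all 3 genes, whose separation the choice required. ERP27 of the endoplasmic reticulum (log2 change 1.69 ± 0.123, adjusted p 4.8e-06), NDRG1, a stress- and differentiation-linked gene (log2 change 1.51 ± 0.0902, adjusted p 1.83e-06), RAMP1, a co-receptor of the calcitonin receptor family (log2 change 1.44 ± 0.22, adjusted p 0.000856), the oxysterol-binding protein OSBP2 (1.33), the cadherin CDH6 (1.32) and the ubiquitin ligase TRIM31 (1.30) rose too. TUBA1A rose by 1.34, with the reservation that tubulin genes are similar in sequence. BCL2L11, encoding the death activator BIM, was at 8.83, 9.14 and 13.6 FPKM in sgNTC and 54.2, 20.4 and 20.7 in sgKLB (log2 change 1.38 ± 0.355, adjusted p 0.0192). Its sgKLB 1 value is over 2 times the other 2, and the call was lost without sgNTC 1 or sgNTC 2 (adjusted p up to 0.0659).

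DNA replication genes fell nearly without exception: 41 of 45 tested members fell and 0 rose (median -0.70). The other 4, POLE, POLE2, POLD3 and RPA1, were between -0.37 and -0.29 and did not pass. CDC45, which joins MCM and GINS into the replicative helicase, was at 28.3, 31.3 and 30.8 FPKM in sgNTC and 11.9, 14.3 and 12.5 in sgKLB (log2 change -1.17 ± 0.11, adjusted p 3.2e-05). RRM2, the regulated subunit of ribonucleotide reductase, was at 123, 128 and 132 FPKM in sgNTC and 63.1, 55.6 and 52.9 in sgKLB (log2 change -1.15 ± 0.0842, adjusted p 4.84e-06). In bulk RNA, fewer cells in S phase and less of each transcript per cell cannot be told apart. MCM7, whose promoter is printed above, was at 242, 251 and 270.3 FPKM in sgNTC and 132, 131 and 132 in sgKLB (log2 change -0.95 ± 0.0639, adjusted p 2.79e-06). PCNA was at 203, 204 and 186 FPKM in sgNTC and 113, 111 and 109 in sgKLB (log2 change -0.82 ± 0.0538, adjusted p 2.51e-06). The spread within sgKLB was small in both, and no library crossed between groups. TYMS (-0.90), which makes dTMP, and MCM6 (-0.88) fell as well. Leaving out any 1 library left 37 to 40 of the 45 called.

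Mitotic genes showed the same direction, with 36 of 45 falling and 0 rising (median -0.66). CDC20 was at 194, 202 and 217 FPKM in sgNTC and 116, 106 and 106 in sgKLB (log2 change -0.90 ± 0.0856, adjusted p 3.37e-05), PLK1 at 90.5, 89.8 and 104 FPKM in sgNTC and 59.7, 52.6 and 56.6 in sgKLB (log2 change -0.74 ± 0.0778, adjusted p 6.93e-05), and cyclin B1 (CCNB1) at 223, 231 and 241 FPKM in sgNTC and 140.5, 143 and 145 in sgKLB (log2 change -0.69 ± 0.0523, adjusted p 6.27e-06). The groups were separate in each. The spindle factor TPX2 (-0.75), the ubiquitin-conjugating enzyme UBE2C (-0.88) and KIF20A (-0.65) fell. MKI67, encoding the proliferation marker Ki-67, was at 37.7, 31.8 and 23.1 FPKM in sgNTC and 14.1, 16.4 and 13.4 in sgKLB (log2 change -1.01 ± 0.163, adjusted p 0.00131), and its controls were the more scattered group. NUF2 of the kinetochore is a single-library case: it was at 7.57, 8.8 and 4.75 in sgNTC and at 4.22, 4.64 and 46.3 in sgKLB, with sgKLB 3 far above the rest, and did not pass (adjusted p 0.677).

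Of 28 genes of the G1 phase and the E2F family, 12 fell and 3 rose (median -0.28). E2F8 was at 14.8, 11.7 and 12.1 FPKM in sgNTC and 4.78, 6.56 and 4.89 in sgKLB (log2 change -1.12 ± 0.13, adjusted p 0.000129). E2F1 (-0.75), E2F2 (-0.90), CDK2 (-0.73) and CDC25A (-0.80) fell. CDKN1C, encoding the CDK inhibitor p57, rose from 0.69, 1.02 and 1 to 6.27, 4.72 and 3.08 FPKM (log2 change 1.55 ± 0.2, adjusted p 0.000269), a rise from about the filter's level with a spread of over 2 times among the sgKLB libraries. CDKN2B rose by 0.53. RB1 was at 11.4 and 11.3 FPKM (sgNTC and sgKLB means) and CDKN1B at 25.2 and 26.6, neither passing.

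Many genes that supply cell growth fell too. Among 30 ribosome biogenesis and RNA polymerase I genes, 19 fell and 0 rose (median -0.49). FBL, the methyltransferase fibrillarin, was at 404, 391 and 427 FPKM in sgNTC and 254, 245 and 266 in sgKLB (log2 change -0.67 ± 0.0575, adjusted p 1.4e-05), and the nucleolar protein NOP16 at 57.3, 59 and 76.6 FPKM in sgNTC and 37.3, 36.6 and 28.9 in sgKLB (log2 change -0.89 ± 0.115, adjusted p 0.00027). No sgKLB library reached a control level in either. NOLC1 (-0.51) and NOP56 (-0.57) fell too, and the abundant NPM1 was at 1402 and 1212 FPKM without passing. In the MYC and MAX network, MYCN fell (11.9, 13.6 and 11.7 to 5.19, 5.04 and 6.65 FPKM; log2 change -1.02 ± 0.152, adjusted p 0.000728), MYC was at 18.4 and 15.8 FPKM without passing, and MXD4 (0.88), MXD1 (0.46) and MYCL (0.98) rose. Of 18 genes of purine, pyrimidine and one-carbon synthesis, 10 fell and 0 rose (median -0.40), among them MTHFD1 (-0.67), SHMT1 (-0.55) and PAICS (-0.62).

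**Figure D2:**
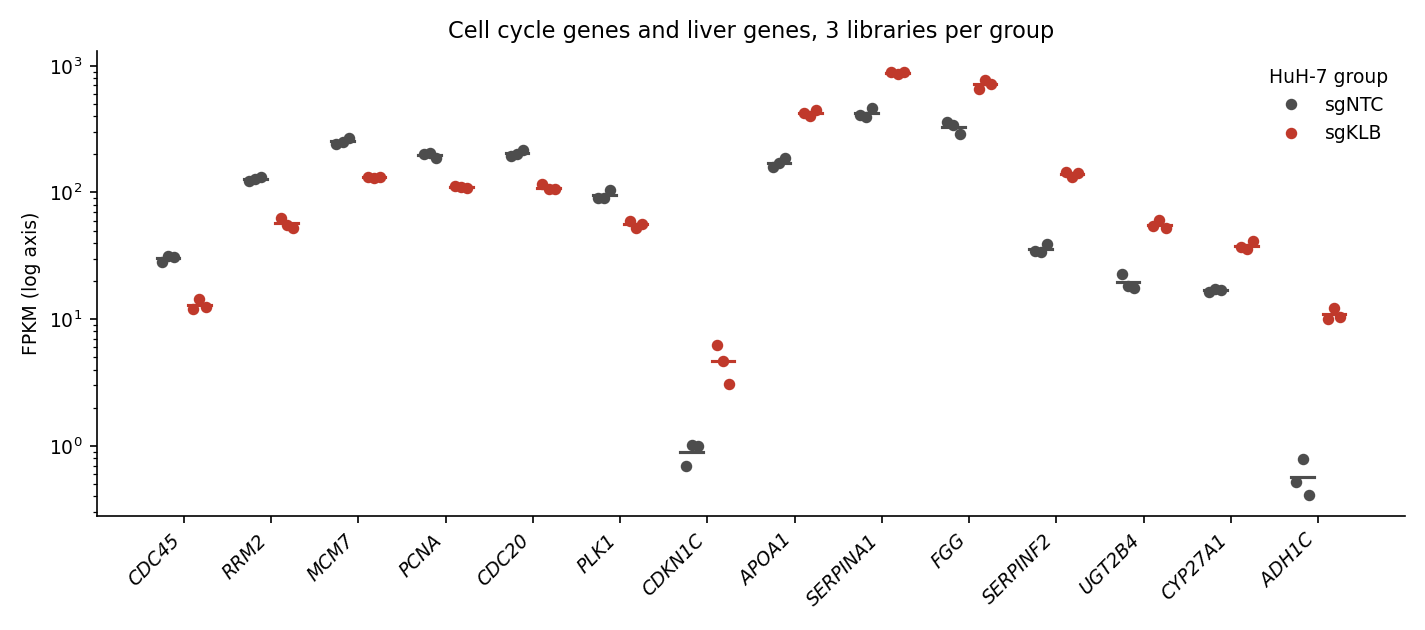
FPKM (log axis) of cell cycle genes (left) and liver genes (right) in each of the 3 sgNTC (grey) and 3 sgKLB (red) libraries, with a bar at each group mean. CDC45, RRM2, MCM7, PCNA, CDC20 and PLK1 are lower in all sgKLB libraries, and CDKN1C and the liver genes are higher in all of them.

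The transcription factors that define hepatocytes changed modestly, with 9 of 30 rising and 2 falling (median 0.24). CREB3L3, a liver-restricted regulator of lipid genes, was at 35.7, 31.8 and 33.3 FPKM in sgNTC and 71.2, 62 and 64.5 in sgKLB (log2 change 0.95 ± 0.073, adjusted p 7.08e-06). HNF4A was at 88, 86 and 93 FPKM in sgNTC and 125, 110.2 and 113 in sgKLB (log2 change 0.38 ± 0.0663, adjusted p 0.00203), a smaller change whose groups also do not overlap. GATA6 (0.60), ONECUT1 (0.58) and RXRA (0.58) rose. The 2 that fell are NR1H4 (FXR, the bile acid receptor), at 13.5, 11.3 and 10.8 FPKM in sgNTC and 6.99, 8.52 and 8.27 in sgKLB (log2 change -0.53 ± 0.105, adjusted p 0.00447), and its target NR0B2 (SHP, a repressor of bile acid synthesis), at 23.1, 25.2 and 26.6 FPKM in sgNTC and 18.5, 19.8 and 16.5 in sgKLB (log2 change -0.43 ± 0.088, adjusted p 0.00519). CEBPA was at 215 and 239.7 FPKM (means) and did not pass.

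Most secreted plasma carriers rose. Of 17 plasma carriers and related proteins, 13 rose and 0 fell (median 0.71). SERPINA1, encoding alpha-1 antitrypsin, was at 408, 396 and 467 FPKM in sgNTC and 895, 857 and 885 in sgKLB (log2 change 1.05 ± 0.0714, adjusted p 2.79e-06). ITIH1, of the inter-alpha-trypsin inhibitor, started near the filter's level, at 1.54, 0.87 and 1.3, and reached 8.5, 7.58 and 6.99 (log2 change 1.97 ± 0.165, adjusted p 1.28e-05). Both separate the groups. Hemopexin (HPX, 1.03), apolipoprotein H (APOH, 1.02), the vitamin D carrier GC (0.98), transferrin (TF, 0.71) and albumin (ALB, 0.44) rose. TTR, at 52 and 43.7 FPKM, and RBP4, at 1047 and 997, did not pass.

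Of 21 apolipoprotein and lipoprotein genes, 8 rose and 1 fell (median 0.42). APOA1, the main protein of HDL, was at 159, 170.2 and 186 FPKM in sgNTC and 425, 404 and 450.3 in sgKLB (log2 change 1.31 ± 0.0911, adjusted p 3.6e-06). APOA4 (1.68), APOC3 (0.84) and APOE (0.49) rose, while APOB, at 108 and 116 FPKM, and APOA2, at 1589 and 1465, did not pass.

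Coagulation and fibrinolysis genes had 15 of 24 rising and 2 falling (median 0.43). The 3 fibrinogen chains rose, FGA from 499, 468 and 495 to 869, 866 and 832 FPKM (log2 change 0.81 ± 0.0457, adjusted p 1.57e-06) and FGG from 357, 344 and 290.4 to 659, 769 and 716 (log2 change 1.11 ± 0.0798, adjusted p 4.29e-06), with FGB at 0.82. F12 was at 5.11, 3.86 and 5.31 in sgNTC and 14.1, 11.7 and 11.1 in sgKLB (log2 change 1.21 ± 0.131, adjusted p 8.69e-05). Every sgKLB library exceeded every control in these genes. TFPI was among those that fell (log2 change -0.46 ± 0.115, adjusted p 0.0169), a call lost in fits without sgKLB 1, sgNTC 1 or sgNTC 2 (adjusted p up to 0.0649). Prothrombin (F2) was at 60.8 and 63.5 FPKM and did not pass.

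Of 23 complement genes, 11 rose and 0 fell (median 0.44), and 7 rose when sgKLB 1 was left out. The terminal component C6 was at 0.28, 0.35 and 0.14 FPKM in sgNTC and 4.93, 5.6 and 6.23 in sgKLB (log2 change 2.39 ± 0.209, adjusted p 1.68e-05), and SERPING1, the C1 inhibitor, at 1.77, 1.99 and 2.04 FPKM in sgNTC and 6.84, 7.05 and 7.59 in sgKLB (log2 change 1.48 ± 0.158, adjusted p 7.63e-05). C1S (0.66) and CFI (0.58) rose, whereas C3, the most abundant component, was at 689 and 637 FPKM and did not pass. Acute phase and iron genes did not move one way: 4 of 17 rose, 5 fell, and the list's median changed sign between scalings. Transferrin receptor 2 (TFR2, 0.63), ferritin heavy chain FTH1 (0.46) and FGL1 (0.80) rose. The other transferrin receptor, TFRC (-0.38), fell, as did SAA4 (-0.87), ID1 (-0.46) and ORM2 (-0.37). Haptoglobin (HP) was at 19, 1.3 and 1.18 in sgNTC and 54.7, 41.7 and 23.6 in sgKLB, a log2 change of 3.06 that did not pass (adjusted p 0.0504). The groups do not overlap, and sgNTC 1 stood apart from the other controls.

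Bile acid synthesis had 4 of 13 tested members rising and 1 falling (median 0.19). CYP27A1, the first enzyme of the acidic pathway, was at 16.4, 17.2 and 17.1 FPKM in sgNTC and 37.1, 36 and 41.1 in sgKLB (log2 change 1.12 ± 0.079, adjusted p 3.87e-06). AKR1D1, the steroid 5-beta-reductase, was at 1.63, 1 and 1.82 FPKM in sgNTC and 7.72, 10.2 and 7.18 in sgKLB (log2 change 1.92 ± 0.181, adjusted p 3.21e-05), and BAAT, which conjugates bile acids to amino acids, at 7.11, 6.72 and 6.74 FPKM in sgNTC and 13.2, 14.4 and 13.2 in sgKLB (log2 change 0.89 ± 0.0918, adjusted p 5.99e-05). None of these overlaps between groups, and AMACR rose too (0.67). The branched-chain oxidase ACOX2 fell (log2 change -0.60 ± 0.158, adjusted p 0.0209), a call lost in fits without sgKLB 3 or sgNTC 2 (adjusted p up to 0.0857). In the list of bile acid transport and FXR axis genes 6 of 15 rose and 3 fell (median 0.42). The sulfotransferase SULT2A1 was at 58.7, 56.4 and 52.2 FPKM in sgNTC and 128, 127 and 121 in sgKLB (log2 change 1.16 ± 0.0698, adjusted p 1.83e-06), and the transporters ABCC2 (0.86) and SLCO2B1 (0.92) rose, beside the falls of NR1H4 and NR0B2.

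Conjugation and detoxification enzymes had 25 of 42 members rising and 1, NNMT, falling (median 0.48). UGT2B4, a bile acid glucuronosyltransferase, was at 22.6, 18.3 and 17.7 FPKM in sgNTC and 54.1, 60.6 and 52.4 in sgKLB (log2 change 1.47 ± 0.102, adjusted p 3.6e-06). The alcohol dehydrogenases were nearly silent in the controls: ADH1C was at 0.52, 0.79 and 0.41 in sgNTC and 10.1, 12.3 and 10.4 in sgKLB (log2 change 2.93 ± 0.168, adjusted p 1.57e-06), and ADH1B at 0.25, 0.06 and 0.25 FPKM in sgNTC and 7.86, 8.79 and 7.15 in sgKLB (log2 change 2.91 ± 0.184, adjusted p 2.51e-06). Both were below 1 FPKM in every control and above 7 in every sgKLB library. The class I ADH genes are near-identical in sequence, as are the UGT2B genes, and how the counting divided reads between copies is not given, so the split among members is uncertain. ADH6 rose (2.19). Of 12 P450 genes of families 1 to 4, 4 rose and 1 fell. The fall was lost without any one of the 6 libraries, with TPM, with no filter, with a replicate block and in the fit of the 2 groups alone. The rises included CYP3A5 (1.18), CYP4F12 (1.15) and CYP4F3 (1.10). CYP3A4, CYP2E1 and CYP1A2 were below the filter. Of 21 NRF2 targets, 5 rose and 2 fell (median 0.075). AKR1C2 (1.12), AKR1C1 (0.70) and HMOX1 (0.68) were among the rises, and AKR1C1 and AKR1C2 are also close copies. The falls were ME1 (-0.33) and NQO1 (-0.20), and falls in the list numbered 0 or 1 when 1 library was left out. NFE2L2 itself was at 66.3 and 62.9 FPKM without passing.

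Genes off in one group and on in the other were few. Those below 1 FPKM in all 3 sgNTC libraries and at or above 3 in all 3 sgKLB libraries were C6, ADH1B, ADH1C, UGT2B15 (0.66, 0.89 and 0.87 in sgNTC and 7.22, 7.87 and 6.77 in sgKLB) and the haptoglobin-related HPR (0.73, 0.35 and 0.54 in sgNTC and 3.95, 4.17 and 3.15 in sgKLB), which is a near copy of HP. In the other direction the 1 gene was ENSG00000277702, at 110.3, 31.4 and 31.3 FPKM in sgNTC and listed at 0 in all 3 sgKLB libraries.

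**Figure D3:**
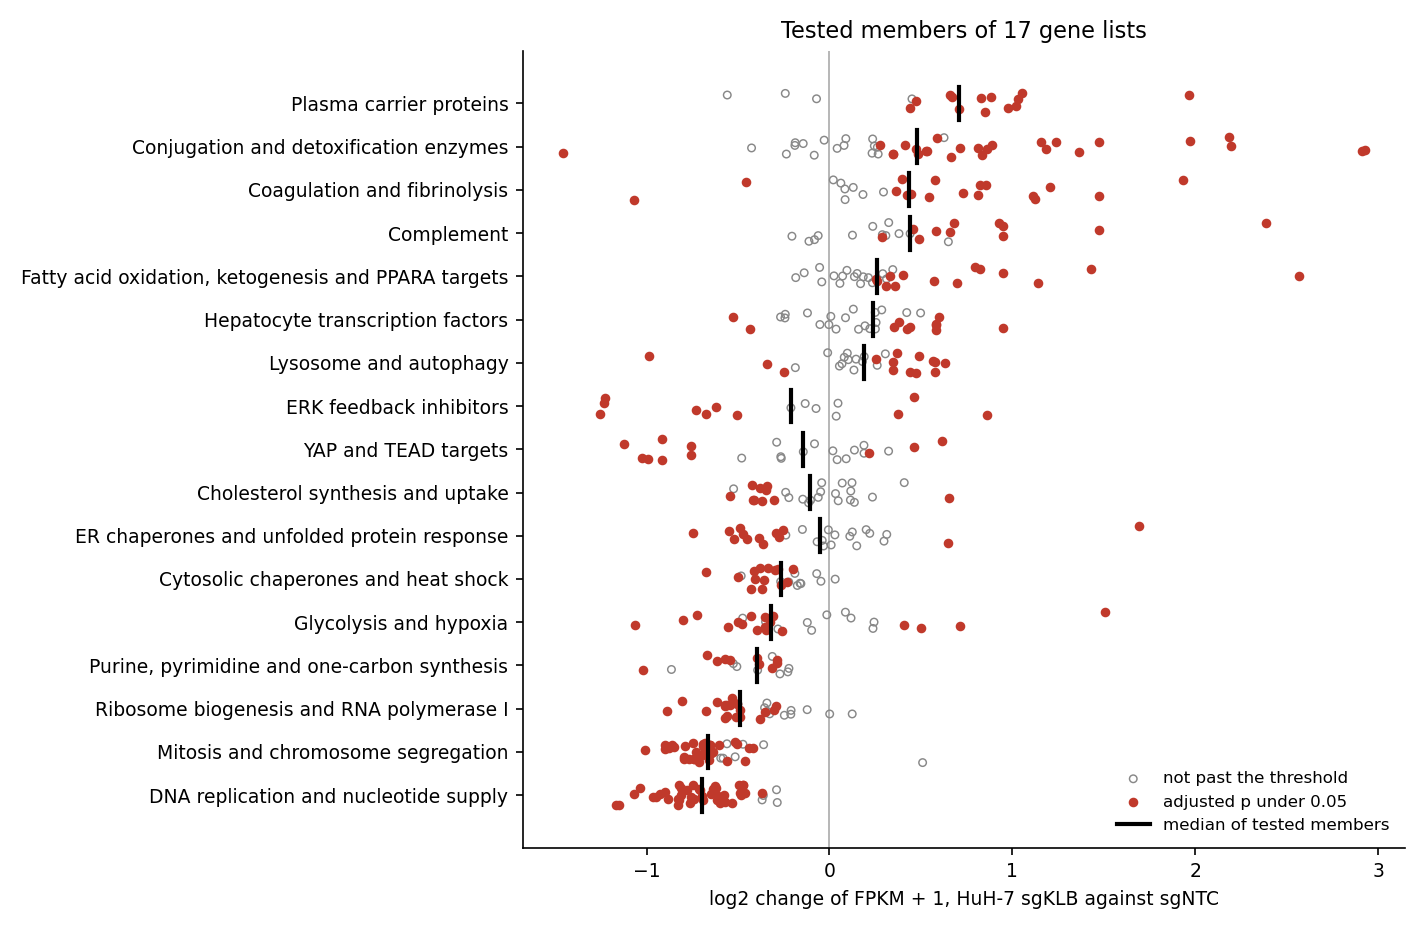
Log2 change of FPKM + 1 in HuH-7 sgKLB against sgNTC for the tested members of 17 gene lists, each point a gene, filled where the adjusted p was under 0.05, with a bar at the list's median. Replication and mitosis members lie left of 0 but for NUF2, and the plasma carrier list lies furthest right with a median of 0.71.

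Fatty acid oxidation, ketogenesis and PPARA target genes rose in 14 of 31 cases with 0 falling (median 0.26), and in 9 when sgKLB 3 was left out. CPT1A, the gate of mitochondrial fatty acid entry, was at 24.2, 28.6 and 28 FPKM in sgNTC and 44.5, 41.9 and 46.1 in sgKLB (log2 change 0.70 ± 0.0807, adjusted p 0.000129), and the fatty acid binding protein FABP1 at 331, 312 and 323 FPKM in sgNTC and 563, 596 and 554 in sgKLB (log2 change 0.82 ± 0.0535, adjusted p 2.51e-06). Neither overlaps between groups. The lipid droplet protein PLIN2 rose (0.80), and PPARA, at 6.24 and 9.4 FPKM, did not pass. Of 27 genes of fatty acid synthesis and storage, 6 rose and 2 fell (1 without sgKLB 1, sgKLB 3, sgNTC 1 or sgNTC 2, and 5 with the length and GC correction), and the rises numbered 2 to 7 over the fits that left out 1 library, at 3 without sgKLB 1 or sgKLB 3 and 2 without sgNTC 1. Fatty acid synthase (FASN, -0.42) fell, SCD was at 756 and 766 FPKM without passing, and the lipid droplet protein CIDEC rose (log2 change 1.16 ± 0.182, adjusted p 0.00103). Cholesterol synthesis and uptake had 9 of 28 falling and 1 rising (median -0.11). The rises numbered 0 without sgKLB 1, sgKLB 3 or sgNTC 2, 3 with quantile normalization, and 4 with TPM or the length and GC correction. FDPS of the mevalonate pathway was at 830.4, 857 and 894 FPKM in sgNTC and 643, 643 and 651 in sgKLB (log2 change -0.41 ± 0.0499, adjusted p 0.000161).

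Glycolysis and hypoxia genes fell in 14 of 28 cases and rose in 4 (median -0.32), the rises numbering 2 without sgKLB 3 or sgNTC 2. LDHA, lactate dehydrogenase, was at 1125, 1124 and 1079 FPKM in sgNTC and 722, 763 and 776 in sgKLB (log2 change -0.56 ± 0.0445, adjusted p 8.75e-06). The glucose transporter SLC2A1 was at 19.9, 14.5 and 16.6 FPKM in sgNTC and 10.5, 8.9 and 10.1 in sgKLB (log2 change -0.72 ± 0.124, adjusted p 0.00177). The groups are separate in both. PGAM1 (-0.50), PKM (-0.48) and EGLN3 (-0.80) fell, whereas P4HA1 (0.72) and NDRG1, which this list also holds, rose. Of 13 genes of glucose production and handling, 3 rose and 1 fell, with KHK, ketohexokinase, rising (0.76) and pyruvate carboxylase (PC) falling (-0.48). In the urea cycle and amino acid catabolism list 6 of 27 rose and 0 fell, and 3 rose without sgKLB 3 or sgNTC 2. GLUD1, glutamate dehydrogenase, was at 346, 370.2 and 358 FPKM in sgNTC and 565, 666 and 661 in sgKLB (log2 change 0.81 ± 0.0685, adjusted p 1.3e-05).

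The changes that passed among cytosolic chaperones were falls. Of 25 cytosolic chaperones and heat shock genes, 14 fell and 0 rose (median -0.27). FKBP4, a co-chaperone of HSP90, was at 101, 105 and 117 FPKM in sgNTC and 68.3, 66.9 and 65.6 in sgKLB (log2 change -0.68 ± 0.0771, adjusted p 0.00012), and members of the chaperonin ring such as CCT5 (-0.43) and TCP1 (-0.41) fell. In the ER chaperone and unfolded protein response list 11 of 28 fell and 2 rose, and the list's median changed sign between scalings. SDF2L1 was at 64.6, 62.6 and 65.9 FPKM in sgNTC and 41, 36.4 and 36.7 in sgKLB (log2 change -0.75 ± 0.0968, adjusted p 0.000272), and PDIA4 (-0.52), HYOU1 (-0.49) and HSPA5, encoding BiP (-0.29), fell. XBP1 was at 384 and 374 FPKM and did not pass. Amino acid supply and integrated stress response genes had 8 of 29 falling and 5 rising, the rises numbering 2 to 4 when 1 library was left out (2 without sgKLB 3, 3 without sgKLB 1, sgKLB 2 or sgNTC 2). The transporters SLC7A1 (-0.67), SLC1A5 (-0.50) and SLC7A5 (-0.48) and the translation repressor EIF4EBP1 (-0.72) fell. The rises were CLTRN (1.78), NUPR1 (0.64), DDIT3 (0.36), PSPH (0.28) and ATF4 (0.17). Those of DDIT3, PSPH and ATF4 lost the call in 1 or more fits without a library. ASNS was at 73.8 and 67 FPKM and did not pass.

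Lysosome and autophagy genes had 11 of 27 rising and 3 falling (median 0.19). GABARAPL1, an ATG8 family protein, was at 72.7, 64 and 74.4 FPKM in sgNTC and 114, 110.3 and 103 in sgKLB (log2 change 0.63 ± 0.0724, adjusted p 0.000123). Cathepsins CTSD (0.58) and CTSB (0.47), the receptor SQSTM1 (0.58) and the kinase ULK1 (0.57) rose, and GLA, alpha-galactosidase, fell (-0.25). The falls numbered 1 without sgKLB 2, sgNTC 1 or sgNTC 3. Among 22 apoptosis regulators 7 rose and 4 fell. The rises numbered 4 without sgKLB 3 or without any one sgNTC library, and the falls 1 without sgKLB 1, sgKLB 2, sgNTC 1 or sgNTC 3. BCL2L1, encoding the survival protein BCL-XL, was at 476, 457 and 488 FPKM in sgNTC and 286, 264 and 273 in sgKLB (log2 change -0.78 ± 0.0524, adjusted p 2.73e-06), and BMF, a BH3-only death activator, at 18.2, 18.1 and 20.6 FPKM in sgNTC and 43.2, 41.2 and 45.1 in sgKLB (log2 change 1.15 ± 0.0857, adjusted p 5.88e-06). The death ligand TNFSF10 (TRAIL) was at 7.58, 4.92 and 2.82 FPKM in sgNTC and 16.6, 16 and 16.4 in sgKLB (log2 change 1.58 ± 0.286, adjusted p 0.00254), with scattered controls. Each of these 3 separates the groups. Of 17 p53 targets 4 rose and 5 fell, at 2 to 3 and 2 to 4 when 1 library was left out, the lowest rise count without any one of sgKLB 1, sgKLB 2, sgKLB 3, sgNTC 1 or sgNTC 3 and the lowest fall count without sgKLB 2 or sgNTC 3. TP53INP1 (0.97) and SESN1 (1.16) rose, and PLK3 (-1.06) and AEN (-0.91) fell.

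YAP and TEAD targets had 7 of 23 falling and 3 rising (median -0.14), with 1 rising without sgKLB 1 or sgKLB 2. The matricellular genes CCN2, at 366, 379 and 398 FPKM in sgNTC and 175, 168 and 179 in sgKLB (log2 change -1.13 ± 0.0595, adjusted p 1.2e-06), and CCN1, at 171, 166 and 181 FPKM in sgNTC and 90.9, 81.8 and 80.1 in sgKLB (log2 change -1.03 ± 0.0665, adjusted p 2.51e-06), did not overlap between groups. AMOTL2 (-0.99), ANKRD1 (-0.76) and IGFBP3 (-0.92) fell, GADD45A rose (0.62), and TEAD1 was at 25.4 and 22.9 FPKM without passing. Chemokines and cytokines had 7 of 16 falling and 3 rising (median -0.32), with 3 falling without sgKLB 2 and 4 without sgNTC 2. CXCL1 was at 57.1, 60.6 and 63.6 FPKM in sgNTC and 26.4, 32.4 and 29.2 in sgKLB (log2 change -1.02 ± 0.0986, adjusted p 3.6e-05), and CCL20 at 126, 111 and 104 FPKM in sgNTC and 61, 59.4 and 57.5 in sgKLB (log2 change -0.93 ± 0.0711, adjusted p 7.08e-06).

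Interferon response genes had 8 of 19 rising and 1, OAS3, falling (median 0.33), and antigen presentation genes 7 of 14 rising and 0 falling (median 0.38). Both counts depended on single libraries. The interferon rises numbered 3 without sgNTC 2, 4 without sgKLB 3 and 5 without sgKLB 2 or sgNTC 3, and the antigen presentation rises 3 without sgKLB 1, sgNTC 1 or sgNTC 2. The peptidase ERAP1 (log2 change 0.80 ± 0.119, adjusted p 0.000728) and beta-2 microglobulin (B2M, log2 change 0.39 ± 0.0599, adjusted p 0.000965) rose. HLA-B was at 0.46, 0.3 and 1.14 FPKM in sgNTC and 11.8, 1.03 and 0.27 in sgKLB and did not pass, and HLA genes are close copies of each other.

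Among epithelial and mesenchymal genes 8 of 21 rose and 3 fell. KRT18, the keratin of simple epithelia, was at 3696, 3893 and 4205 FPKM in sgNTC and 2283, 2159 and 2338 in sgKLB (log2 change -0.80 ± 0.0753, adjusted p 3.2e-05), and its partner KRT8 fell (-0.62). GJB1, the hepatocyte gap junction protein connexin 32, was at 27.9, 23.6 and 30.4 FPKM in sgNTC and 70.5, 59.5 and 68.3 in sgKLB (log2 change 1.25 ± 0.11, adjusted p 1.8e-05), and N-cadherin (CDH2, 0.97) rose while CDH1, at 69 and 74 FPKM, did not pass. Actin and contractile genes had 8 of 25 falling and 2 rising (4 with TPM or quantile normalization), with 3 falling without sgKLB 2, sgKLB 3 or sgNTC 3 and 5 without sgNTC 2. Oncofetal genes split, with 5 of 17 rising and 5 falling and a median that changed sign between scalings. The falls numbered 2 without sgNTC 2 and 3 without sgKLB 3 or sgNTC 1. AFP, alpha-fetoprotein, was at 684, 684 and 561 FPKM in sgNTC and 937, 1109.7 and 1045 in sgKLB (log2 change 0.68 ± 0.0943, adjusted p 0.000431) and GPC3 rose (0.63), but the imprinted RNA H19, at 30.4, 29.4 and 31.3 FPKM in sgNTC and 15.6, 12.6 and 12.7 in sgKLB (log2 change -1.11 ± 0.108, adjusted p 3.73e-05), and SOX9 (-0.53) fell.

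Other receptor tyrosine kinases split as well, with 4 of 16 rising and 3 falling, and 1 falling without sgKLB 1, sgKLB 3 or sgNTC 3. ERBB2 was at 23.4, 24.6 and 27 FPKM in sgNTC and 39, 39.4 and 37.3 in sgKLB (log2 change 0.61 ± 0.0903, adjusted p 0.000728), and ERBB3 (0.52) and EGFR (0.44) rose, while EPHA2 was at 78.4, 84.5 and 88.9 FPKM in sgNTC and 47.8, 35.9 and 40.4 in sgKLB (log2 change -1.01 ± 0.099, adjusted p 3.89e-05). In the insulin and IGF axis 8 of 19 rose and 3 fell, and 4 rose without sgKLB 2 or sgNTC 2 and 5 without sgKLB 1 or sgNTC 3. The adaptor IRS2 was at 14.2, 13.9 and 14 FPKM in sgNTC and 8, 8.21 and 8.36 in sgKLB (log2 change -0.71 ± 0.0863, adjusted p 0.000171), and SOCS2, a feedback inhibitor of growth hormone signalling, at 4.87, 5.26 and 5.6 FPKM in sgNTC and 11, 10.3 and 11.3 in sgKLB (log2 change 0.93 ± 0.125, adjusted p 0.000362). The WNT inhibitor DKK1 fell (log2 change -0.96 ± 0.0851, adjusted p 1.83e-05) and glutamine synthetase GLUL rose (log2 change 0.47 ± 0.0615, adjusted p 0.000278), the 2 called among 11 WNT targets. Of 35 nuclear genes of oxidative phosphorylation, 1 rose (2 with quantile normalization) and 3 fell. Of 13 mitochondrially encoded genes 2 rose and 1 fell. Those rises numbered 0 without sgKLB 2, sgKLB 3 or sgNTC 1, 1 without sgKLB 1 and 4 with quantile normalization, and the falls 0 with quantile normalization or the length and GC correction and 2 without sgNTC 1. The medians of both lists changed sign between scalings.

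Loss of KLB was then set against loss of the receptors in the same line. The 3 knockout groups share the sgNTC libraries, so their changes are given side by side and the differences were tested directly. The direct test against sgFGFR4 gave 2463 of 14716 genes (16.7%), 1044 (7.09%) higher in sgKLB and 1419 (9.64%) lower. That total was 1214 to 1868 when 1 library was left out: 1214 without sgFGFR4 2, 1325 without sgKLB 3, 1403 without sgKLB 1 and 1490 without sgFGFR4 3. After quantile normalization the split was 1384 and 1206, which turns its balance. Against sgFGFR3/4, 81 genes (0.55%) differed, 32 (0.217%) higher and 49 (0.333%) lower. This count is unstable: it was 5 without sgFGFR3/4 3, 9 without sgKLB 2, 12 without sgKLB 3, 14 without sgKLB 1 or sgFGFR3/4 1, 252 without sgFGFR3/4 2, and 248 after a correction for length and GC content. At this precision few differences between loss of the co-receptor and loss of both receptors were detectable, which does not show that the groups are alike.

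The targeted transcripts separated the groups. KLB was at 6.52 ± 0.633 FPKM in sgKLB, 18.7 ± 0.719 in sgFGFR4 and 22.2 ± 1.14 in sgFGFR3/4. FGFR4 was at 208 ± 18.6, 87.4 ± 1.87 and 90.3 ± 4.46 in the same order, and FGFR3 at 103 ± 5.66, 112 ± 4.41 and 46.7 ± 0.634 (means ± SD, n = 3). FGF19 was at 19.1 ± 1.09, 8.52 ± 0.51 and 12.6 ± 1.66. The sgKLB level of FGF19 differed from sgFGFR4 by 1.08 (SE 0.107, adjusted p 8.59e-05) and from sgFGFR3/4 by 0.58 (SE 0.107, adjusted p 0.0419). The second call was lost in 5 of 6 fits without a library (adjusted p up to 0.166).

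Replication genes had 29 of 45 members lower in sgKLB than in sgFGFR4 and 0 higher, and mitotic genes 37 of 45 and 0. Against sgFGFR3/4 these numbers were 3 and 5, with 0 higher. The list medians against sgNTC were -0.25 in sgFGFR4, -0.47 in sgFGFR3/4 and -0.70 in sgKLB for replication, and -0.11, -0.30 and -0.66 for mitosis. Plasma carriers had medians of 0.01, 0.48 and 0.71, with 12 of 17 higher in sgKLB than in sgFGFR4 and 1 lower, and 3 higher than in sgFGFR3/4 and 0 lower. For single genes, SERPINF2 was at 139.8 ± 6.96 FPKM in sgKLB, 45 ± 2.21 in sgFGFR4 and 87.9 ± 7.03 in sgFGFR3/4. It was higher in sgKLB than in sgFGFR4 by 1.61 (SE 0.0794, adjusted p 9.11e-07) and than in sgFGFR3/4 by 0.67 (SE 0.0794, adjusted p 0.00583). The last call was lost in 1 of 6 fits without a library (adjusted p up to 0.0534). ETV4 was at 17.7 ± 0.795, 39.1 ± 3.05 and 26.1 ± 2.06 FPKM in the same order and lower in sgKLB than in sgFGFR4, a difference of -1.10 (SE 0.101, adjusted p 4.83e-05). Its difference from sgFGFR3/4 was -0.54 (SE 0.101, adjusted p 0.0419), a call lost in 6 of 6 fits without a library (adjusted p up to 0.16). NDRG1 (1.44 ± 0.0902, adjusted p 3.69e-06), HABP2, a plasma protease (1.43 ± 0.0721, adjusted p 9.11e-07), and TNFSF10 (1.48 ± 0.286, adjusted p 0.0058) were higher in sgKLB than in sgFGFR4, whereas the chromatin remodeller ATRX (-1.55 ± 0.316, adjusted p 0.00746) and the condensin subunit SMC4 (-1.43 ± 0.273, adjusted p 0.00542) were lower. ATRX was at 7.64 ± 3.7 FPKM in sgNTC, 7.03 ± 0.99 in sgKLB and 22.7 ± 4.96 in sgFGFR4, so sgKLB was near the control level and sgFGFR4 above it.

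**Figure D4:**
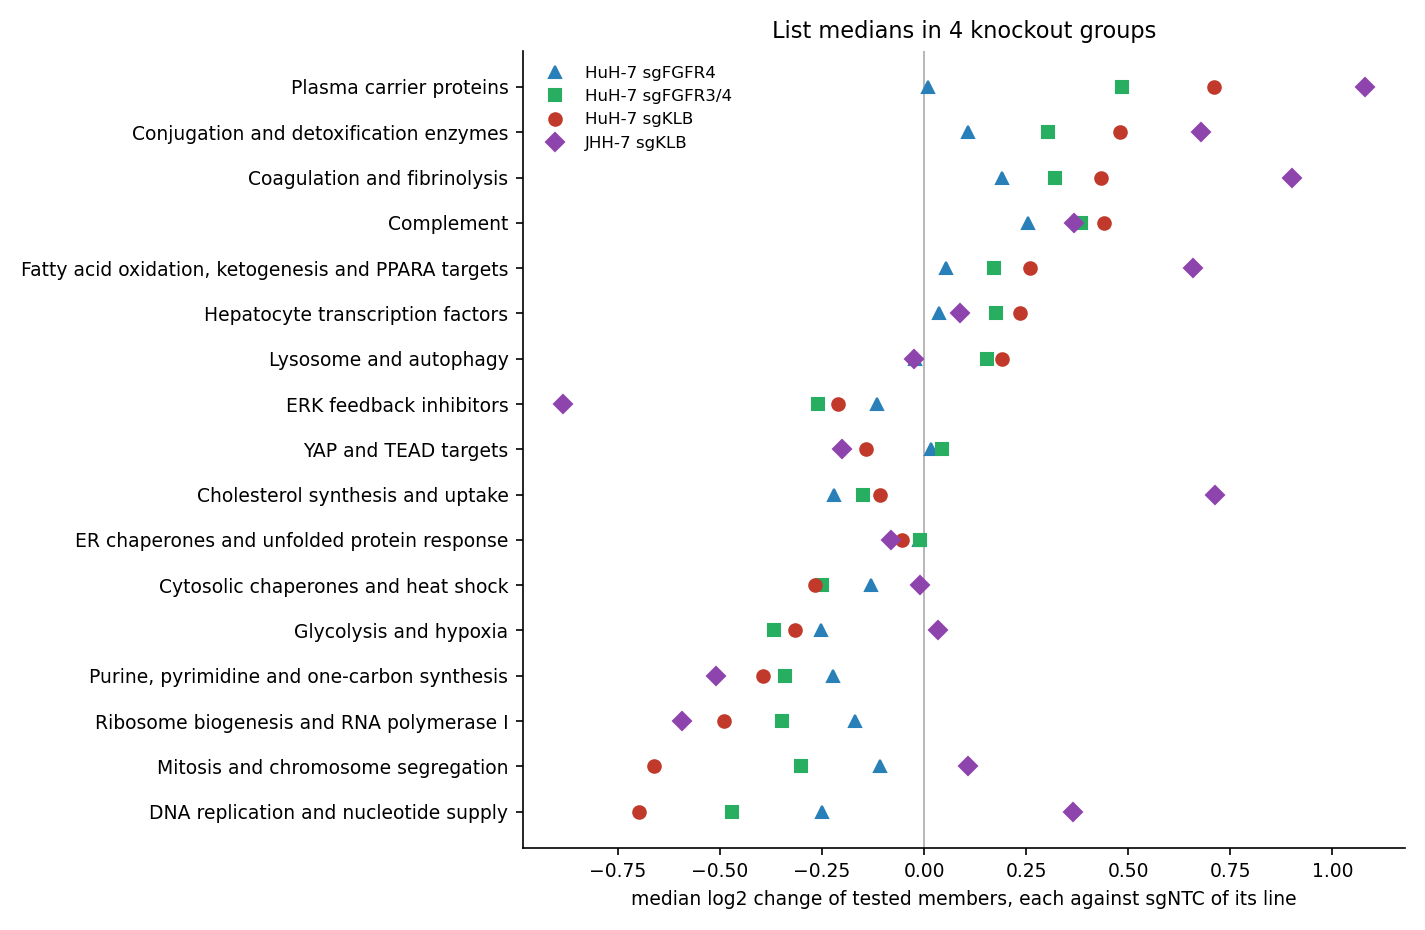
Median log2 change against the line's own sgNTC for the tested members of 17 gene lists in HuH-7 sgFGFR4 (blue triangles), HuH-7 sgFGFR3/4 (green squares), HuH-7 sgKLB (red circles) and JHH-7 sgKLB (purple diamonds). The HuH-7 knockouts share their controls, and replication genes are at -0.70 in HuH-7 sgKLB and 0.36 in JHH-7 sgKLB.

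JHH-7 cells with a guide against KLB provide a comparison with separate controls. KLB was at 15.5 ± 0.286 FPKM in JHH-7 sgNTC and 7.25 ± 0.365 in JHH-7 sgKLB (means ± SD, n = 3). In that line, 4781 of 14987 genes (31.9%) passed, 2326 (15.5%) rising and 2455 (16.4%) falling. The fit includes the 3 JHH-7 sgFGFR1/3/4 libraries, which differed less from each other than those of any other group (SD of pairwise log2 differences 0.234 against 0.253 to 0.382) and whose FPKM summed to 734241 to 734381. Whether they are separate samples was not tested. Without them 4333 genes passed.

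Of the 13304 genes tested in both lines, 560 rose in both, 45.8% of the HuH-7 rises and 26.8% of the JHH-7 rises, where 15.7% of tested genes rose in JHH-7. Falls in both numbered 406, 33.4% of the HuH-7 falls and 17.7% of the JHH-7 falls, where 17.3% of tested genes fell in JHH-7. The 15.7% and 17.3% are backgrounds only for the shares of HuH-7 calls. For the shares of JHH-7 calls the background is HuH-7, where 1222 of the 13304 genes rose and 1217 fell. Opposite calls were made for 126 genes that rose in HuH-7 (10.3%) and 183 that fell (15%). The test of the difference between lines, over all 27 libraries, gave 3296 of 16731 genes (19.7%), 1639 (9.8%) higher in JHH-7 and 1657 (9.9%) lower, and 3079 without the sgFGFR1/3/4 libraries. With TPM the split was 1411 and 1940. Of the 2439 genes called in HuH-7 and tested in both lines, 1093 differed between lines. These genes were chosen by the HuH-7 change, which the line difference also contains. The choice raises that number, so it does not measure how much of the HuH-7 change is particular to the line.

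The cell cycle lists differed between the lines. Of 45 replication genes, 26 rose and 2 fell in JHH-7 (median 0.36), and 40 were higher in the line difference (JHH-7 minus HuH-7) with 0 lower. Of 45 mitotic genes 11 rose and 2 fell in JHH-7 (median 0.11), with 34 higher and 0 lower in the difference. PCNA was at 85.3 ± 11.4 FPKM in JHH-7 sgNTC and 175 ± 16.6 in JHH-7 sgKLB, a line difference of 1.85 (adjusted p 8.99e-09). RRM2 was at 138 ± 10.6 and 189.7 ± 11.5 (line difference 1.60, adjusted p 2.01e-08). Ribosome biogenesis genes fell in both lines, with 25 of 30 falling in JHH-7 and 0 rising. ERK feedback inhibitors fell in 11 of 15 cases in JHH-7 with 0 rising, and 7 were lower in the line difference. SPRY4 was at 18.6 ± 1.33 and 4.05 ± 0.686 in JHH-7 (line difference -0.71, adjusted p 0.000678), and ETV4 at 182 ± 15.5 and 49.9 ± 3.13 (line difference -0.33, adjusted p 0.0655), the first differing between lines and the second not passing.

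Plasma carriers rose in 16 of 17 cases in JHH-7 with 0 falling. APOA1 was at 919 ± 95.5 FPKM in JHH-7 sgNTC and 3199 ± 233 in JHH-7 sgKLB (line difference 0.49, adjusted p 0.0103), and SERPINF2 at 87.4 ± 4.93 and 346 ± 24.6 (line difference 0.04, adjusted p 0.838). Cholesterol synthesis and uptake went different ways in the lines, with 19 of 28 rising and 1 falling in JHH-7, and 19 higher in the difference with 1 lower. Amino acid supply and integrated stress response genes fell in 27 of 29 cases in JHH-7 with 0 rising, and 28 were lower in the difference. FGF19 was at 177 ± 13.6 and 45.8 ± 1.91 in JHH-7, against a rise in HuH-7.

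**Figure D5:**
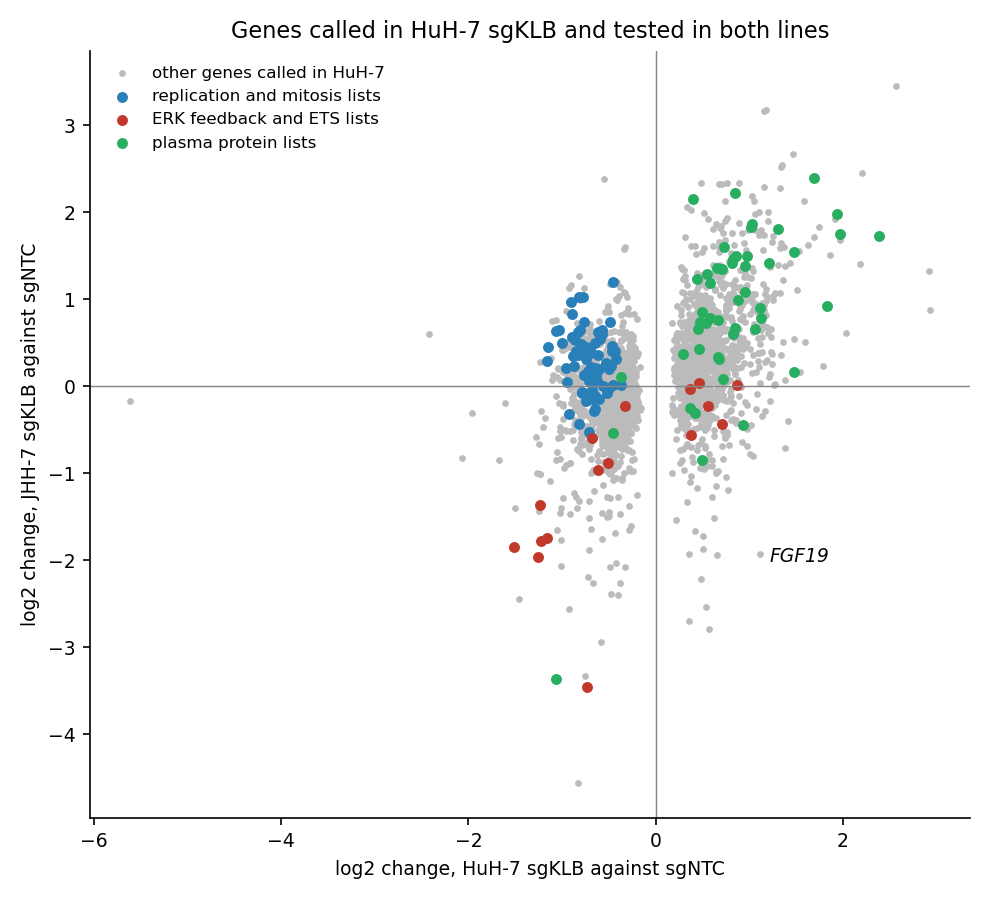
Log2 change in HuH-7 sgKLB (horizontal) and in JHH-7 sgKLB (vertical), each against its own sgNTC, for genes called in HuH-7 and tested in both lines. Replication and mitosis members (blue) fell in HuH-7 and lie on both sides of 0 in JHH-7, ERK feedback and ETS members that fell in HuH-7 (red, left) lie below 0, and FGF19 lies at 1.11 and -1.93.

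The calls were spread over the genome. Between 6.23% and 12.4% of tested genes rose on each nuclear chromosome, and between 4.15% and 12.4% fell, with chromosome 10 at the top of the first range and chromosome 11 at the top of the second. Across genes, which are not independent replicates, the log2 change had a Spearman correlation of 0.015 with GC content and 0.074 with transcript length. Protein-coding genes made up 12528 of those tested, 1239 rising and 1229 falling. Of 567 lincRNAs 26 rose and 9 fell, and of 638 antisense transcripts 24 rose and 8 fell. Whether the counting used strand is not given in the sources used here, so reads of an antisense RNA and its partner may not be separable.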

How the data were processed

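Total RNA of 27 libraries (3 per group) was sequenced, and the deposited table per line holds FPKM per gene, made by the authors with RSEM on GRCh38/hg38 per the submitters' processing notes. Of the aligner, software versions and annotation nothing more is stated there, and the tables hold no counts, so depth was estimated from the steps between low FPKM values. From these values log2(FPKM + 1) was computed for genes with FPKM of at least 1 in at least 3 HuH-7 libraries, and limma 3.58.1 (R 4.3.3, statmod 1.5.0; trend and robust options) was fitted to group means over 12 HuH-7 libraries, with Benjamini-Hochberg adjustment over all 14716 genes and a threshold of 0.05. Adjusted p values and standard errors in the report come from this fit. JHH-7 was fitted over its 15 libraries, and the difference between lines over 27. A simulation for HuH-7 sgKLB against sgNTC over 14716 genes held 200 changed genes, all with a mean log2(FPKM + 1) above 2. Its values were independent normal draws. Recovered were 32.8% of changes of 0.5 (log2), 91% of 1 and 97% of 2, with 4.55% false among the calls. Many more genes were called in the data than were changed in the simulation, so these rates may not carry over.

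The members and the gene lists were chosen with earlier results of these data known. Named genes are the FGF19 axis, the 15 largest rises and falls at a mean log2(FPKM + 1) of at least 3 with no overlap between groups, up to 6 members per list and direction with the smallest p together with members whose role was asked for, genes off in one group and on in the other, the 5 largest differences between lines or knockouts per direction, and neighbours of KLB. Some genes that this rule gives are not reported here, but counts include them. Alternatives were another pseudocount (0.1), no or a stricter filter (FPKM of at least 5), TPM, quantile normalization, the 2 groups alone, a replicate block, limma without its trend and robust options, and leaving out each library.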

Additional observations from a re-analysis of the deposited data

Results flagged for a closer look

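The effect of the KLB guide differed between JHH-7 and HuH-7 in the following genes, by the interaction term of the limma fit over 27 libraries (values are the JHH-7 minus HuH-7 difference in log2 change, and mean FPKM ± SD of 3 libraries in sgNTC to sgKLB, with JHH-7 given first). FGF19 differed by -3.03 (adjusted p 1.06e-12). It went from 177 ± 13.6 to 45.8 ± 1.91 in JHH-7 and from 8.33 ± 0.496 to 19.1 ± 1.09 in HuH-7, opposite directions that each passed. FGFR3 differed by 0.57 (adjusted p 1.63e-05), with 89.9 ± 6.5 and 117 ± 4.88 in JHH-7, and its HuH-7 call was lost without any library other than sgKLB 1.

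The genes higher in the JHH-7 effect were led by NPPB, a natriuretic peptide, at 2.94 (adjusted p 1.12e-07), which went from 0.52 ± 0.184 to 7.12 ± 2.24 in JHH-7 and from 345 ± 40.9 to 235 ± 27.4 in HuH-7. DEFB1, a defensin, differed by 2.09 (adjusted p 1.43e-05), with 13.6 ± 3.16 to 33.6 ± 0.961 in JHH-7, 93.4 ± 19.7 to 52.6 ± 11.7 in HuH-7, and its HuH-7 call was lost in fits without sgKLB 3 or sgNTC 3 (adjusted p up to 0.0641). CRYBG1 differed by 2.07 (adjusted p 1.21e-06), with 2.16 ± 0.871 to 5.96 ± 0.787 and 14.4 ± 3.06 to 7.16 ± 0.978. EFEMP1, a fibulin, differed by 2.06 (adjusted p 9.8e-11), with 2.29 ± 0.364 to 6.16 ± 0.0557 and 172 ± 7.53 to 89.7 ± 0.62. SULT2A1 rose in both lines and differed by 2.00 (adjusted p 5.51e-09), with 5.6 ± 1.18 to 57.4 ± 1.72 in JHH-7.

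Among genes lower in the JHH-7 effect, CDKN2B, which encodes the CDK inhibitor p15, differed by -3.06 (adjusted p 4.08e-11), with 32.5 ± 2.72 to 4.82 ± 0.896 in JHH-7, 7.47 ± 0.508 to 11.2 ± 0.455 in HuH-7. CTH, cystathionine gamma-lyase, differed by -3.05 (adjusted p 5.51e-11), with 92.5 ± 4.44 to 13.6 ± 2.91 and 6.15 ± 0.42 to 8.14 ± 0.711, and its HuH-7 call was lost in fits without sgKLB 1, sgKLB 3, sgNTC 1, sgNTC 2 or sgNTC 3 (adjusted p up to 0.124). DUSP5 fell in both lines and differed by -2.72 (adjusted p 4.97e-12), with 212 ± 21.1 to 18.5 ± 1.53 in JHH-7, 22.3 ± 1.06 to 13.1 ± 1.34 in HuH-7. BEX2 differed by -2.70 (adjusted p 1.22e-06), with 34.2 ± 3.9 to 6.65 ± 1.55 and 18.2 ± 0.88 to 25.8 ± 0.454.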

How the results depend on the processing

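KLB kept its direction and its call under every alternative run (log2 change -1.37 to -1.20). The count for sgKLB against sgNTC was 1807 to 2240 without 1 library, 2 groups alone gave 1951, and the other alternatives 1962 (no filter) to 3262 (length and GC correction), against 2591. Of the 2591 genes, 1738 to 1961 were called again without 1 library, all in the same direction. The count against sgFGFR4 was 1214 to 1868 without 1 library. The count against sgFGFR3/4 moved most, to 5 to 252 without 1 library, 248 with the length and GC correction and 9 with the replicate block, against 81, and the cause was not tested. The line difference gave 2869 to 3091 calls without 1 library. Of 344 named genes that were called, 264 were called in every fit that gave them a value (20 of the 344 had none under the filter of FPKM of at least 5), 76 lost a call without some library, 62 lost one under another alternative, and 0 reversed. The length and GC correction and the fit without JHH-7 sgFGFR1/3/4 were chosen after seeing the data. Same-numbered sgNTC and sgKLB libraries had deviations correlated at -0.00754, 0.0841 and 0.0547, and differently numbered ones at -0.138 to 0.0725. With 3 libraries per group these values cannot tell whether the numbers pair the libraries. With the replicate block the counts were 2170 (1097 rising, 1073 falling) for sgKLB against sgNTC, 1789 against sgFGFR4 and 2978 for the line difference. The 3 libraries per group and estimated depths of 13.2 to 22.3 M fragments limit what small changes can show.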
